A study of Mus musculus with 12 samples.

Results

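Protein phosphatase 1 (PP1) genes were followed across the 4 groups of a study of cultured keratinocytes from mouse, the cells that build the epidermis. The 10 genes were taken by their symbol in the count table, of 54532 genes listed there, and all 10 had enough counts to be among the 13571 genes tested. They were the catalytic subunit genes Ppp1ca, Ppp1cb and Ppp1cc, the ASPP family genes Ppp1r13l (iASPP), Ppp1r13b and Trp53bp2, the spinophilin gene Ppp1r9b, the myosin phosphatase targeting subunit gene Ppp1r12a, and the eIF2 phosphatase subunit genes Ppp1r15a and Ppp1r15b. The set was drawn up with results of these data known. Ppp1r13l and Ppp1r9b were chosen by their cortical-to-total changes. Which of the conditions gave those values is not recorded, so all values of these 2 genes are a description with no test, and tests are given for the other 8.

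All cells had the genotype labelled WT DP-BirA(1-584), which joins the biotin ligase BirA to the first part of desmoplakin, residues 1 to 584. Whole desmoplakin is the plakin that ties keratin filaments to desmosomes. Every group, the unwounded cells included, received calcium to start differentiation, 2 µg/mL doxycycline to switch the fusion on, and biotin for 16 h. Cells were scratch wounded or left unwounded, sucrose gradients separated the translating material of the lysate, and neutravidin beads, which hold on to biotin, then split it. What the beads kept was the cortical fraction, and what they left behind was called the total fraction. Each fraction of each condition had 3 libraries, named below by condition and fraction, as in unwounded total and wounded cortical. Cortical here means kept by the beads, and the remainder lacks what the beads took. Every group had the fusion and biotin, so material tagged by the fusion cannot be told apart from other material that the beads held. The titles number biological replicates but do not say how cultures were shared between groups, so the p-values measure the spread between these libraries. As the beads split the lysate, a cortical and a total library can come from the same culture, and the main tests did not use such pairs. In such bulk samples, fewer cells carrying an mRNA and less of it per cell cannot be told apart.

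PP1 is one of the main serine and threonine phosphatases of animal cells. A few nearly interchangeable catalytic subunits are bound by many regulatory subunits, most through a short docking motif, and the regulatory subunit sets where the enzyme sits and which protein it dephosphorylates. In epidermis, iASPP is known as an inhibitor of p53 family proteins that also sits at cell junctions, and its loss causes skin and heart disease in mice. Spinophilin binds actin filaments as well as PP1, Ppp1r12a directs PP1 to myosin, and the products of Ppp1r15a (GADD34) and Ppp1r15b (CReP) direct it to the translation factor eIF2.

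Of the 10 genes, Ppp1r15a had the largest wound change in total libraries, and the bases before its start hold an element found in few of the promoters searched. The stretch between the RefSeq start of Ppp1r15a and the facing first exon of Plekha4 is shown for that reason, with capitals marking a full cAMP response element (CRE), the palindrome TGACGTCA bound by CREB and ATF family factors.
Ppp1r15a promoter, GRCm38.p6, chr7:45526269-45526329, minus strand: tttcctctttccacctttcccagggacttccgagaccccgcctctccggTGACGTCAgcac
The element lies 12 to 5 bases before the start. Both strands of the 250 bases before the start were searched for all RefSeq promoters, and 508 of 32851 (1.55%) held this element. Of the 8 PP1 genes with a promoter entry, Ppp1r15a was the one that held it. Of the other motifs searched on both strands, the GC box (GGGCGG, 32.7% of promoters) occurred in Ppp1cb, Ppp1cc, Ppp1r13b and Trp53bp2, and the CAAT box (CCAAT, 33.8%) in Ppp1r13b. The AP-1 motif (TGAGTCA, 4.46%) and the TATA box (TATAAA, 12.4%) occurred in none of the 8. These matches describe letters in the window and were not measured as sites. Ppp1ca and Ppp1r15b had no entry.

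Library totals ran from 8980013 to 23457548 counts. Wounded total replicate 1 stood apart: it detected 13117 genes, where the other 11 libraries detected 14393 to 16867. Some of the results that use it are also given without it, and the rest are given with it alone. Of the genes that the other libraries of its group placed at 10 to 20 counts, 32.7% were listed at 0 there, and this share was 13.1 to 32.7% in wounded total, 17.6 to 23.6% in wounded cortical, 4.4 to 24.8% in unwounded cortical and 0.506 to 5.05% in unwounded total libraries. Krt5 was at 1645 to 3431 FPKM (fragments scaled by exon length and library size) and Krt14 at 2345 to 6234 FPKM. Of the differentiation keratins listed, Krt1 was at 0 to 0.415 FPKM and Krt10 at 7.51 to 15.6 FPKM. The summed FPKM of the 8 keratinocyte markers was 4046 to 4714 in unwounded total and 6453 to 6508 in unwounded cortical libraries, and 7352 to 9108 in wounded total and 9148 to 9354 in wounded cortical libraries. The markers of other cell types summed to at most 0.679 FPKM for fibroblasts (7 genes), 2.28 for melanocytes (5), 0.184 for immune cells (4) and 0.297 for endothelial cells (3). The genes of these 4 lists at 0 in all 12 libraries were Dcn, Tyr, Lyz2 and Cdh5. Others were detected in each library: Mitf (0.327 to 1.48 FPKM), Pmel (0.13 to 0.996), Pecam1 (0.0436 to 0.297) and Col1a1 (0.0254 to 0.218). Levels below are CPM, the usual counts scaled by library size, here after TMM normalisation, as mean ± SD over n = 3 libraries or as the values of replicates 1 to 3 in that order.

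**Figure D1:**
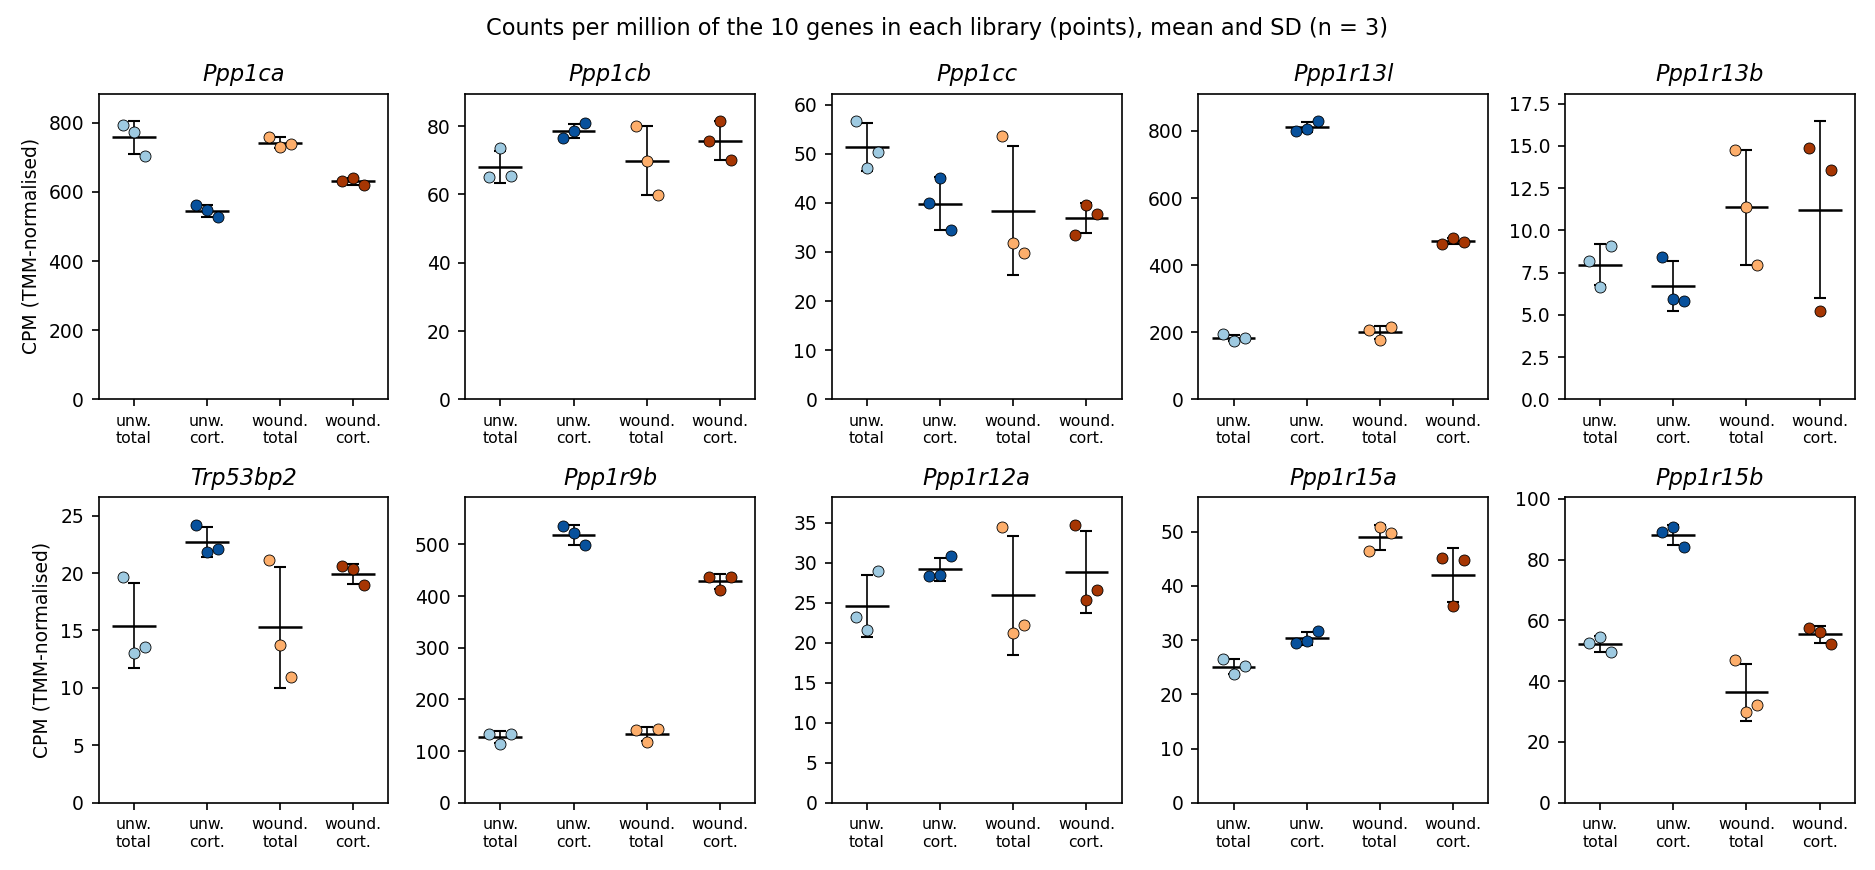
TMM-normalised CPM (vertical axes, each from 0) of the 10 PP1 genes in the 4 groups, with 1 point per library, a bar for the mean and whiskers for the SD of 3 libraries. Ppp1r13l and Ppp1r9b are high in both cortical groups, and Ppp1r15a is high in both wounded groups.

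Per length, the catalytic gene Ppp1ca had the highest level of the 10 in each group, from 394 ± 11.3 FPKM in unwounded cortical to 539 ± 31.8 FPKM in unwounded total libraries (mean ± SD, n = 3), with 540 FPKM in wounded total libraries. Ppp1r13l came next and Ppp1r9b after it in each group, with no overlap of libraries between these neighbours. In unwounded total libraries the levels then ran Ppp1cc at 14.7, Ppp1r15b at 9.17, Ppp1r15a at 8.40, Ppp1cb at 6.12, Trp53bp2 at 3.43, Ppp1r12a at 3.01 and Ppp1r13b at 1.58 FPKM. Ppp1r15b and Ppp1r15a overlapped there, as did Trp53bp2 and Ppp1r12a. In wounded total libraries Ppp1r15a came next after Ppp1r9b, at 16.7 ± 0.777 FPKM, above Ppp1cc at 11.2 ± 3.85 and Ppp1r15b at 6.51 ± 1.67. In the 2 cortical groups Ppp1cc overlapped its next lower neighbour, which was Ppp1r15a in unwounded and Ppp1r15b in wounded cells. Other neighbours that overlapped were Ppp1r15b with Ppp1cb, Trp53bp2 with Ppp1r12a and Ppp1r12a with Ppp1r13b in wounded total, and Trp53bp2 with Ppp1r12a in wounded cortical libraries.

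The first comparison asked which PP1 mRNAs were higher or lower in the cortical fraction than in the remainder in unwounded cells. With edgeR's quasi-likelihood test and Benjamini-Hochberg adjustment over all tested genes, Ppp1r15b was higher and Ppp1ca was lower in the cortical fraction, 2 of the 8 genes tested. Over all genes, 14.2% passed at an adjusted p under 0.05, 6.62% higher and 7.59% lower. At an unadjusted p under 0.05, 4 of the 8 passed. The share of all genes at that threshold was not computed. This count and later ones at an unadjusted p can therefore show neither an excess nor a lack. The median log2 fold change was 0.26 over the 10 genes and 0.00 over all genes. In wounded cells 1 of 8 passed, Ppp1r15b, which was higher, against 15.7% of all genes, 7.62% higher and 8.03% lower. The median log2 fold change there was 0.14 over the 10 genes and 0.04 over all. Both medians of the 10 genes include Ppp1r13l and Ppp1r9b, chosen by such changes, so they do not show a shift of the 8 tested genes.

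Of the catalytic subunits, Ppp1ca (chr19:4192158-4195419, plus strand) was lower in the cortical than in the total fraction of unwounded cells. It had 795, 773 and 705 CPM in the unwounded total libraries and 562, 547 and 526 CPM in the unwounded cortical libraries. In wounded cells it had 759, 729 and 738 CPM in total and 631, 641 and 620 CPM in cortical libraries. The cortical libraries lay below the total libraries in both conditions, without overlap. Its log2 fold change was -0.47 (SE 0.09, adjusted p = 0.00328, edgeR) in unwounded cells and -0.23 (SE 0.09, adjusted p = 0.106) in wounded cells. By DESeq2 the wounded difference passed, at -0.26 (adjusted p = 0.00482). The unwounded call ended with scaling by library size alone (-0.29, adjusted p = 0.0756) and with the trend on gene length removed (-0.21, adjusted p = 0.341). Ppp1ca has the shortest merged exons of the 10 genes, 1379 bases, and overlaps Rad9a on the other strand, which had at most 648 counts against at least 5174 for Ppp1ca.

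Of the other catalytic genes, Ppp1cb differed less from group to group than Ppp1ca. Ppp1cb (chr5:32458843-32517433) had 68.0 ± 4.73, 78.6 ± 2.16, 69.9 ± 10.1 and 75.8 ± 5.62 CPM in unwounded total and cortical and in wounded total and cortical libraries. Its log2 fold change of cortical over total was 0.21 (95% interval -0.03 to 0.45, adjusted p = 0.268) in unwounded and 0.12 (-0.12 to 0.36, adjusted p = 0.558) in wounded cells. Ppp1cc (chr5:122158278-122175273) had 51.3 ± 4.87, 39.8 ± 5.39, 38.4 ± 13.2 and 36.9 ± 3.08 CPM in the same order. Within the wounded total group, replicate 1 had 53.5 CPM of Ppp1cc and the others 31.7 and 29.9. With that library left out, Ppp1cc was lower in wounded than in unwounded total libraries, at -0.74 (adjusted p = 3.18e-04), against -0.42 (adjusted p = 0.135) with it. Without that library its lower cortical level in unwounded cells also passed, at -0.37 (adjusted p = 0.0318), against -0.36 (adjusted p = 0.221) with it. That library is in neither unwounded group and enters this comparison through the fit shared by all 12 libraries.

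As a share of the summed FPKM of the 3 catalytic genes, Ppp1ca made up 96.3% ± 0.184 in unwounded total, 95.5% ± 0.293 in unwounded cortical, 96.8% ± 0.750 in wounded total and 96.3% ± 0.200 in wounded cortical libraries (SD, n = 3). Ppp1cb took 1.09% to 1.74% and Ppp1cc 2.01% to 2.80% of the sum as group means. FPKM divides each count by the length of all merged exons, which is 10913 bases for Ppp1cb against 981 coding bases, so the share of Ppp1cb depends on that length. These genes are close paralogs, and how fragments shared between them were counted is not given in the sources used here.

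Ppp1r13l (chr7:19359749-19378533, plus strand), the iASPP gene, had the highest cortical-to-total ratio of the PP1 genes in unwounded cells, and its values are given as a description. It had 193, 174 and 182 CPM in the unwounded total libraries and 801, 805 and 829 CPM in the unwounded cortical libraries. In wounded cells it had 207, 176 and 215 CPM in total and 463, 481 and 469 CPM in cortical libraries. Each cortical library was above each total library, and the wounded cortical libraries lay between the unwounded cortical and both total groups. The unwounded change was 4.43-fold, a log2 fold change of 2.15 (SE 0.10), which stood 66th from the top of the 13571 genes.

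In wounded cells the cortical level of Ppp1r13l was 2.36 times the total level (log2 1.24, SE 0.10). Over the 21 alternatives run this value lay between 0.98 and 1.45. Wounding moved the total level by a log2 fold change of 0.12 (SE 0.10) and the cortical level by -0.78 (SE 0.10). The wounded log2 ratio of cortical to total differed from the unwounded one by -0.91 (SE 0.14).

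The other ASPP genes were much less abundant. Trp53bp2 (ASPP2, chr1:182409172-182462432) had 15.4 ± 3.68, 22.7 ± 1.31, 15.3 ± 5.25 and 19.9 ± 0.867 CPM in unwounded total and cortical and in wounded total and cortical libraries. Its cortical-to-total log2 fold change was 0.56 (SE 0.22, adjusted p = 0.102) in unwounded and 0.39 (SE 0.22, adjusted p = 0.258) in wounded cells. Without wounded total replicate 1 both passed, at 0.55 (adjusted p = 0.0188) and 0.69 (adjusted p = 0.0101), though it enters the unwounded comparison through the shared fit alone. That library had 21.1 CPM of Trp53bp2 and the other wounded total libraries 13.7 and 11.0. The unwounded difference also passed without unwounded total replicate 1 (0.80, adjusted p = 0.0479), with no filter (0.57, adjusted p = 0.0457) and with only the compared groups in the fit (0.56, adjusted p = 0.0236).

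Ppp1r13b (ASPP1, chr12:111828457-111908110, minus strand) was the least abundant of the 10 per length, at group means of 1.35 to 2.30 FPKM. It had 5.22 to 14.9 CPM over the 12 libraries, and its groups overlapped in each of the 4 pairwise comparisons. Its log2 fold change of wounded over unwounded was 0.52 (95% interval -0.19 to 1.22, adjusted p = 0.334) in total and 0.73 (0.02 to 1.44, adjusted p = 0.271) in cortical libraries. Ppp1r13b overlaps Zfyve21 on the other strand, which had up to 218 counts, against a lowest count of 57 for Ppp1r13b. The libraries do not keep strand, so reads of these genes cannot be told apart where they overlap.

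Of the summed FPKM of the 3 ASPP genes, Ppp1r13l made up 90.9% ± 1.04 in unwounded total and 97.2% ± 0.282 in unwounded cortical libraries. It made up 90.6% ± 2.77 in wounded total and 95.1% ± 0.796 in wounded cortical libraries (SD, n = 3). Trp53bp2 made up 6.20% ± 1.08 in unwounded total and 2.22% ± 0.148 in unwounded cortical libraries.

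Ppp1r9b (chr11:94991035-95006899, plus strand), the spinophilin gene, had 133, 113 and 134 CPM in the unwounded total libraries and 536, 522 and 498 CPM in the unwounded cortical libraries. In wounded cells it had 140, 117 and 142 CPM in total and 436, 412 and 437 CPM in cortical libraries. The cortical libraries lay above the total libraries in both conditions, and the wounded cortical libraries below the unwounded cortical ones. In unwounded cells the cortical level of Ppp1r9b was 4.10 times the total level (log2 2.04, SE 0.11), and the log2 value lay between 1.88 and 2.22 over the 21 alternatives. As for Ppp1r13l, these values carry no test.

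In wounded cells the ratio was 3.22-fold (log2 1.69, SE 0.11), which stood 268th of 13571 genes. Removing the trend on gene length gave 1.54 for this value, and removing that on coding length gave 1.43. Wounding moved Ppp1r9b by a log2 fold change of 0.07 (SE 0.11) in total and -0.28 (SE 0.11) in cortical libraries. The difference of the 2 cortical-to-total log2 ratios was -0.35 (SE 0.15) for Ppp1r9b, against -0.91 (SE 0.14) for Ppp1r13l.

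**Figure D2:**
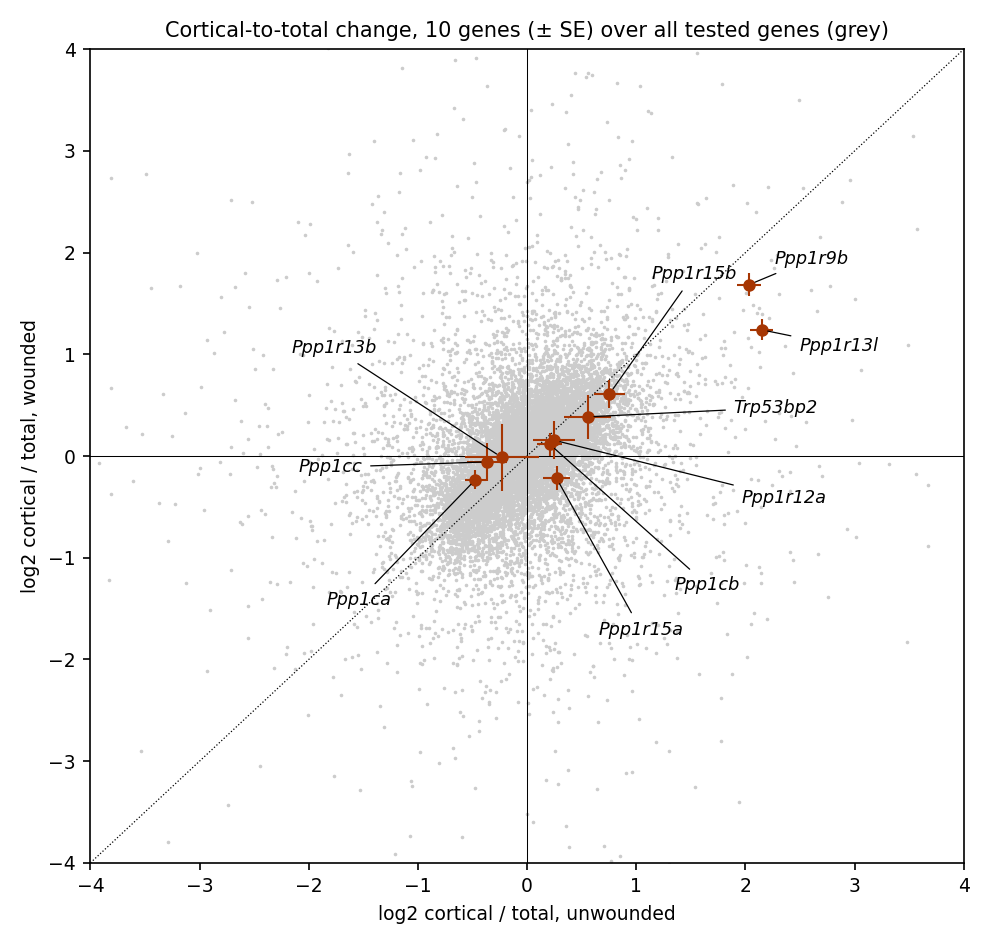
Log2 cortical over total in unwounded (horizontal) and wounded cells (vertical) for the 10 PP1 genes (points, with SE bars) and all tested genes (grey), with a dotted line of equal change. Ppp1r13l and Ppp1r9b stand right of the line, at 2.15 and 2.04 in unwounded and 1.24 and 1.69 in wounded cells. The axes end at 4, which leaves out 99 genes.

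Ppp1r12a (MYPT1, chr10:108162193-108284475), which targets PP1 to myosin light chain, had 24.6 ± 3.84, 29.2 ± 1.41, 26.0 ± 7.44 and 28.9 ± 5.12 CPM in unwounded total and cortical and in wounded total and cortical libraries. All 4 groups overlapped. Its cortical-to-total log2 fold change was 0.25 (95% interval -0.15 to 0.64, adjusted p = 0.478) in unwounded and 0.16 (-0.24 to 0.55, adjusted p = 0.642) in wounded cells. The wound change was 0.08 (-0.32 to 0.48, adjusted p = 0.835) in total and -0.01 (-0.41 to 0.39, adjusted p = 0.988) in cortical libraries. These intervals leave room for changes of either sign.

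The number of regulatory transcripts per catalytic transcript was compared within each library as FPKM per 100 FPKM of the summed catalytic genes. Ppp1r13l stood at 8.92 ± 0.586 in unwounded total, 54.4 ± 2.86 in unwounded cortical, 9.95 ± 0.928 in wounded total and 27.5 ± 0.373 in wounded cortical libraries (SD, n = 3). Ppp1r9b stood at 4.38 ± 0.564, 24.6 ± 0.0834, 4.71 ± 0.442 and 17.7 ± 0.875 in the same order. For both genes the total groups overlapped each other and the cortical groups lay apart from them and from each other. The other 5 regulatory genes stayed between 0.218 and 3.89 in all 12 libraries. Of these, Trp53bp2 and Ppp1r15b also had cortical groups apart from both total groups and from each other. As group means in the same order, Trp53bp2 stood at 0.609, 1.24, 0.619 and 0.950, and Ppp1r15b at 1.64, 3.80, 1.16 and 2.08. For Ppp1r13b, Ppp1r12a and Ppp1r15a the cortical groups overlapped each other. The summed catalytic genes were mostly Ppp1ca, which was lower in cortical libraries, and this raises each ratio there. No test was run on these ratios, which use the same libraries as the cortical-to-total values of Ppp1r13l and Ppp1r9b.

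**Figure D3:**
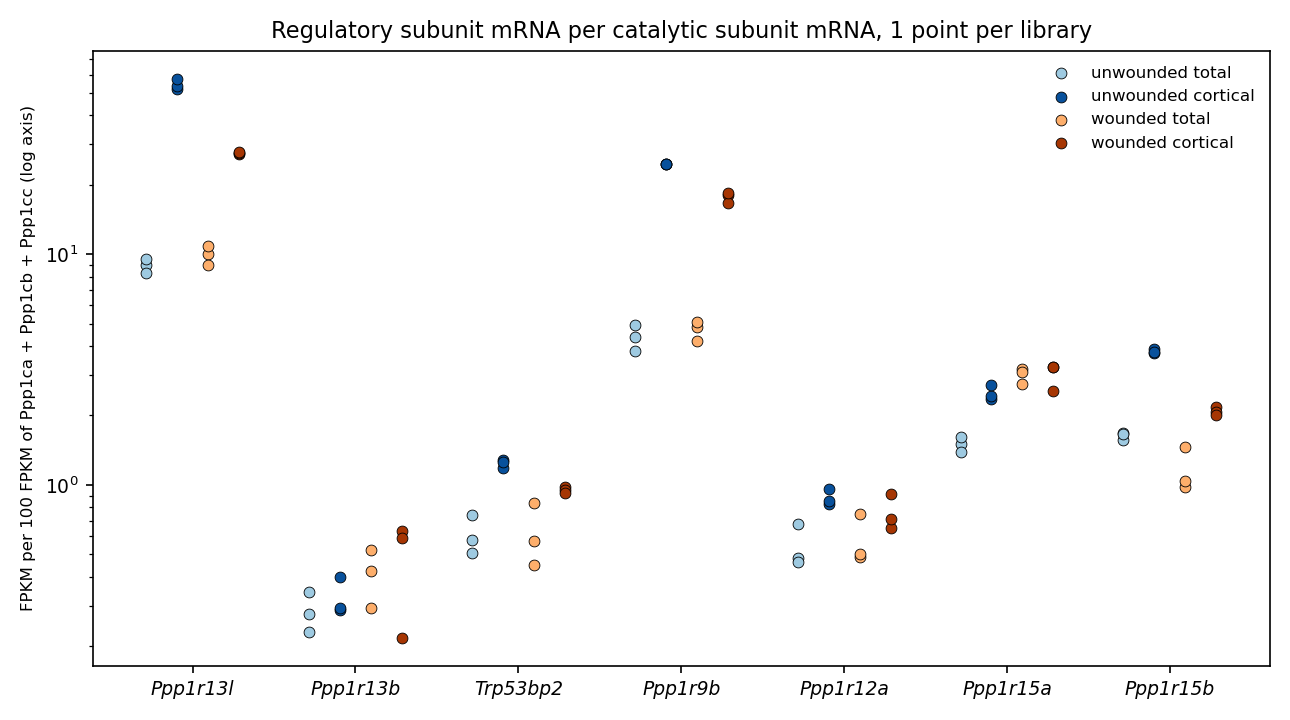
FPKM of each regulatory PP1 gene per 100 FPKM of Ppp1ca, Ppp1cb and Ppp1cc together (vertical log axis), with 1 point per library and colours for the 4 groups. Ppp1r13l reaches 54.4 and Ppp1r9b 24.6 in unwounded cortical libraries as group means.

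The wound comparisons asked how the level of each mRNA in either fraction differed between scratch wounded and unwounded cells. In total libraries 2 of the 8 genes tested passed, Ppp1r15a higher and Ppp1r15b lower, against 15.6% of all genes, 8.39% higher and 7.2% lower. In cortical libraries the same 2 genes passed in the same directions, against 2.48% of all genes, 1.6% higher and 0.884% lower. At an unadjusted p under 0.05, 3 of 8 passed in total and 4 of 8 in cortical libraries, again with no share of all genes to set beside them. The median log2 fold change over the 10 genes was 0.06 in total and -0.08 in cortical libraries, against -0.03 and 0.02 over all genes. The wound comparisons use the same libraries as the comparisons of fractions, by which Ppp1r13l and Ppp1r9b were chosen, and the medians of the 10 genes include both.

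Ppp1r15a (chr7:45522916-45526268, minus strand) encodes GADD34, the inducible subunit that brings PP1 to phosphorylated eIF2 and so lets protein synthesis resume after stress. It had 26.5, 23.7 and 25.2 CPM in the unwounded total libraries and 46.3, 50.8 and 49.7 CPM in the wounded total libraries. In the cortical fraction it had 29.5, 29.8 and 31.7 CPM in unwounded and 45.1, 36.2 and 44.7 CPM in wounded cells. Each wounded library was above each unwounded library of its fraction. Its mRNA rose 1.95-fold after wounding in the total fraction (log2 0.96, SE 0.12, adjusted p = 8.61e-05, edgeR), and this held in all 21 alternatives, at log2 values of 0.88 to 1.05.

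In the cortical fraction Ppp1r15a rose 1.39-fold (log2 0.47, SE 0.12, adjusted p = 0.0477), and this call was lost in 15 of 21 alternatives, with adjusted p from 0.014 to 0.172. The direction was the same in all 21. Its overlap with Tulp2 on the other strand involved at most 25 counts of Tulp2 against at least 312 of Ppp1r15a.

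The position of Ppp1r15a between the fractions differed in sign between the conditions. Cortical libraries lay above total libraries in unwounded cells and below them in wounded cells, without overlap in either. Neither difference passed, at log2 fold changes of 0.27 (95% interval 0.01 to 0.53, adjusted p = 0.164) and -0.22 (-0.47 to 0.03, adjusted p = 0.242). The unwounded one passed with scaling by library size alone (0.46, adjusted p = 0.039), and the wounded one with the coding length trend removed (-0.41, adjusted p = 0.0299). The test of the change itself gave -0.49 (SE 0.17, unadjusted p = 0.0108, adjusted p = 0.394), which did not pass.

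Ppp1r15b (chr1:133131143-133139783, plus strand) encodes CReP, the constitutive counterpart of GADD34. It had 52.5, 54.6 and 49.6 CPM in the unwounded total libraries and 89.2, 90.8 and 84.3 CPM in the unwounded cortical libraries. In wounded cells it had 47.0, 29.9 and 32.1 CPM in total and 57.6, 56.3 and 52.4 CPM in cortical libraries. The cortical libraries were higher in both conditions and the wounded libraries lower in both fractions, with no overlap.

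The cortical-to-total change of Ppp1r15b was 1.69-fold in unwounded cells (log2 0.75, SE 0.14, adjusted p = 0.00195, edgeR), a call that held in all 21 alternatives at 0.63 to 0.94. In wounded cells it was 1.53-fold (log2 0.61, SE 0.14, adjusted p = 0.00792). That wounded call was lost with the gene length trend removed (0.44, adjusted p = 0.0642), with the coding length trend removed (0.40, adjusted p = 0.0824), with only the compared groups in the fit (0.61, adjusted p = 0.0659) and without wounded total replicate 2 (0.48, adjusted p = 0.0545).

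After wounding Ppp1r15b fell, with a log2 fold change of -0.52 (SE 0.14, adjusted p = 0.018) in total and -0.67 (SE 0.14, adjusted p = 0.0161) in cortical libraries. Each of these calls was lost in 7 of 21 alternatives, with the direction unchanged in all 21. In the total fraction the libraries whose omission ended the call were unwounded total replicates 1 (-0.52, adjusted p = 0.0615) and 2 (-0.51, adjusted p = 0.0605) and wounded total replicates 2 (-0.40, adjusted p = 0.0947) and 3 (-0.45, adjusted p = 0.0753). Without wounded total replicate 1, which had the highest level of its group, the value was -0.75 (adjusted p = 2.29e-05). In the cortical fraction leaving out any 1 of the 6 cortical libraries ended the call, with adjusted p from 0.0525 to 0.0821.

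The FPKM of Ppp1r15a divided by that of Ppp1r15b was 0.918 ± 0.0785 in unwounded total, 0.657 ± 0.0519 in unwounded cortical, 2.69 ± 0.717 in wounded total and 1.45 ± 0.204 in wounded cortical libraries (SD, n = 3). No library of a wounded group overlapped one of an unwounded group. Within wounded total libraries the ratio was 1.88, 3.24 and 2.95, lowest in replicate 1. Per length, Ppp1r15a was above Ppp1r15b in each wounded library and below it in each unwounded one. This depends on the merged exons, 2937 bases for Ppp1r15a and 5594 for Ppp1r15b, against 1971 and 2091 coding bases. As CPM, which is not divided by length, Ppp1r15a was below Ppp1r15b in each wounded cortical library and in wounded total replicate 1.

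**Figure D4:**
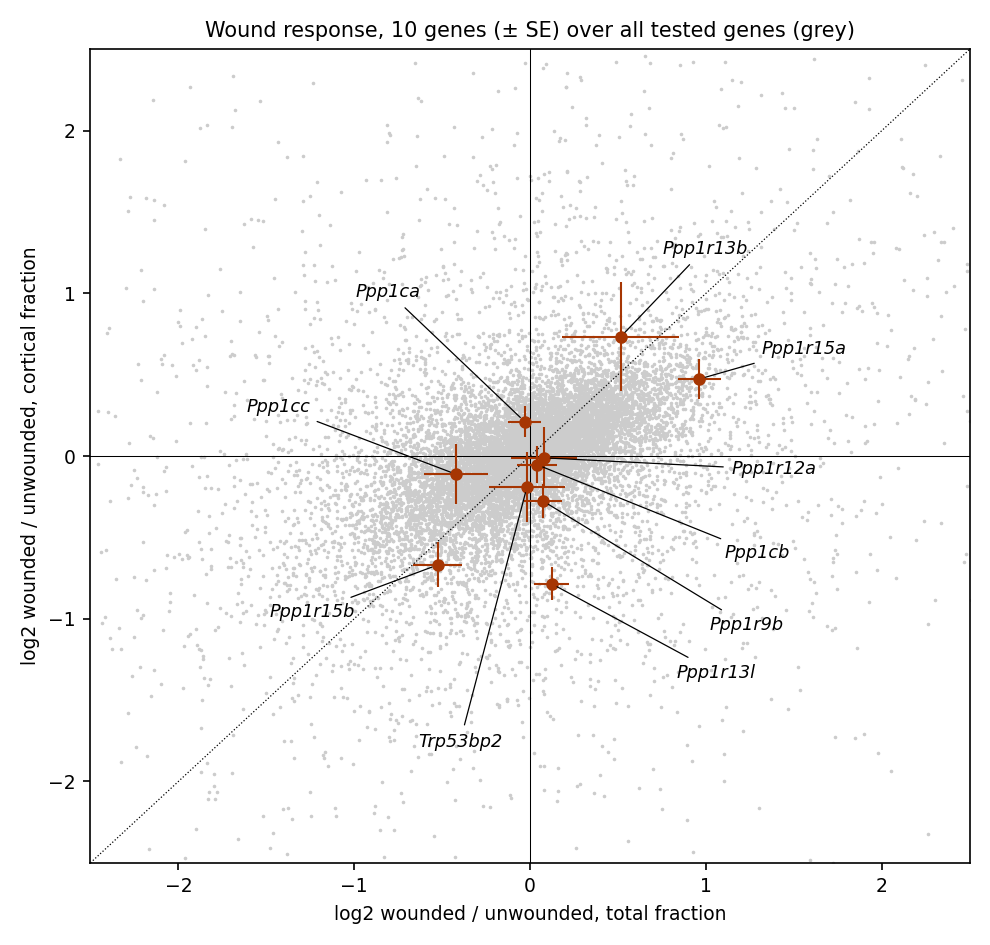
Log2 wounded over unwounded in total (horizontal) and cortical libraries (vertical) for the 10 PP1 genes (points, with SE bars) and all tested genes (grey), with a dotted line of equal change. Ppp1r15a lies at 0.96 and 0.47, Ppp1r15b at -0.52 and -0.67, and Ppp1r13l at 0.12 and -0.78. The axes end at 2.5, which leaves out 348 genes.

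In the test of whether wounding changed the cortical-to-total ratio, 0 of the 8 genes tested passed by edgeR and 0 by DESeq2, and 1, Ppp1r15a, had an unadjusted p under 0.05. Over all genes 0.125% passed, 0.0221% with a higher and 0.103% with a lower ratio after wounding. The median difference of log2 ratios was -0.12 over the 10 genes, the chosen Ppp1r13l and Ppp1r9b included, and 0.02 over all. For Ppp1ca the difference was 0.24 (95% interval -0.04 to 0.52, adjusted p = 0.639), and for Ppp1r15b it was -0.14 (-0.56 to 0.27, adjusted p = 0.896).

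Other PP1 regulators served as the wider family. Of 38 in the count table, 23 were tested. For this list and the p53, myosin phosphatase and eIF2 lists below, counts stand beside these shares of all genes passing. The shares were 14.2% in unwounded and 15.7% in wounded cortical against total. For the wound comparisons they were 15.6% in total and 2.48% in cortical libraries, and for the change of the ratio 0.125%. No list was tested as a set. In unwounded cells 1 was higher in the cortical fraction, Ppp1r10 (0.55, adjusted p = 0.0459), and 3 were lower. The latter included the inhibitor genes Ppp1r11 (log2 fold change -0.87, adjusted p = 0.00946) and Ppp1r2 (-0.68, adjusted p = 0.00121). In wounded cells 3 were higher and 4 lower. Ppp1r11 (-0.98, adjusted p = 0.0047) was again among the lower ones, as was Ppp1r35 (-0.78, adjusted p = 0.00252). The higher ones with the largest change, Phactr2 (3.46, adjusted p = 0.0391) and Ppp1r12b (1.43, adjusted p = 0.0387), had at most 5.61 CPM in any group mean. Phactr2 was at 0.208 CPM in wounded total and 2.40 CPM in wounded cortical libraries, and the part of genes listed at 0 in such low values was not tested. After wounding 2 were lower in total libraries, Ppp1r8 (-1.04, adjusted p = 0.005) and Ppp1r2 (-0.62, adjusted p = 0.00182). In cortical libraries 0 of 23 passed by edgeR, against 6 at an unadjusted p under 0.05 and 2 by DESeq2. Their median cortical-to-total log2 fold change was 0.05 in unwounded and 0.08 in wounded cells. Over the 21 alternatives the number passing in cortical against total ran from 1 to 10 in unwounded cells, lowest without unwounded total replicate 2, and from 3 to 10 in wounded cells, highest without wounded total replicate 1.

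Genes around p53, which the ASPP proteins bind, were counted from a list of 14, all tested. In unwounded cells 2 were higher in the cortical fraction, Sesn2 (0.59, adjusted p = 0.00857) and Trp63 (0.42, adjusted p = 0.0152), the latter encoding the p63 of basal keratinocytes. Of the 3 lower ones, Sfn, which encodes 14-3-3 sigma, changed by -0.67 (adjusted p = 3.29e-04) and the apoptosis gene Bax by -0.58 (adjusted p = 0.0252). In wounded cells 3 were higher, with Bbc3 (0.48, adjusted p = 0.0413) and Mdm2 (0.44, adjusted p = 0.0173) leading, and 1 was lower, Sfn (-0.55, adjusted p = 0.00149). After wounding, 6 of 14 fell in total libraries, against 7.2% of all genes. The largest falls were of Trp53 itself (-0.85, adjusted p = 2.28e-04) and its inhibitor Mdm2 (-0.66, adjusted p = 0.00113). Perp, which encodes a desmosome-associated p53 and p63 target, was the 1 that rose (0.30, adjusted p = 0.0422). In cortical libraries 1 passed, Ccng1 (-0.42, adjusted p = 0.0402). Over the alternatives 0 to 4 of the list passed there, with 0 under the replicate block and when any 1 of the 6 cortical libraries was left out. The median wound change of the list was -0.27 in total and -0.17 in cortical libraries. Over the alternatives 3 to 7 of the list passed in total libraries, lowest with only the compared groups in the fit. In cortical against total 1 to 6 passed in unwounded cells, lowest without unwounded total replicate 2, and 2 to 8 in wounded cells.

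Of the 14 genes around myosin phosphatase, 12 were tested. Its myosin heavy chain genes were higher in the cortical fraction, Myh14 by 1.22 (adjusted p = 2.42e-05) and Myh9 by 0.82 (adjusted p = 7.16e-04) in unwounded cells. In wounded cells the values were 1.14 (adjusted p = 1.06e-04) for Myh14 and 0.85 (adjusted p = 6.99e-04) for Myh9. The light chain gene Myl12a was lower, at -0.71 (adjusted p = 0.00202) and -0.64 (adjusted p = 0.00385). In each condition 3 were higher and 2 lower. The other lower gene with the largest change was Rhoa (-0.43, adjusted p = 0.0154) in unwounded and Dapk3 (-0.52, adjusted p = 0.0291) in wounded cells. After wounding 3 rose in total libraries, led by Myh14 (0.65, adjusted p = 0.00284) and the myosin kinase gene Dapk3 (0.49, adjusted p = 0.0353), and Myh14 rose in cortical libraries (0.57, adjusted p = 0.0247). In the latter 0 to 4 of the list passed over the alternatives, with 0 under scaling by library size alone, without unwounded total replicate 1 and without any 1 of the 6 cortical libraries. Over the alternatives 1 to 7 passed in total libraries, highest without wounded total replicate 1, and 3 to 8 and 3 to 7 passed in cortical against total of unwounded and wounded cells.

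Of the 12 genes of the eIF2 pathway, all tested, Atf4 encodes the transcription factor whose translation rises when eIF2 is phosphorylated. Its mRNA was higher in the cortical fraction of unwounded cells, at 1377 against 492 CPM (log2 1.49, adjusted p = 4.93e-07), and of wounded cells, at 610 against 452 CPM (log2 0.43, adjusted p = 0.0176). In wounded cells 0 to 3 of the list passed over the alternatives, with 0 when only the compared groups were fitted and without wounded cortical replicate 1 or 2. Atf4 was the 1 gene of the list whose ratio changed with wounding (-1.05, adjusted p = 0.012), a call lost when any 1 of the unwounded cortical libraries or wounded cortical replicate 2 or 3 was left out. In the cortical fraction it fell after wounding (-1.17, adjusted p = 6.27e-05), where Ddit4, a stress-induced inhibitor of mTOR signalling, rose (0.50, adjusted p = 0.00704). In total libraries Ddit4 rose (0.78, adjusted p = 3.66e-05) and Eif2s2, the eIF2 beta subunit gene, fell (-0.51, adjusted p = 0.00262). Eif2s2 was also the 1 lower gene in the unwounded cortical fraction (-0.55, adjusted p = 0.00182). In the test of the change of the ratio, 0 genes of the other 3 lists passed by edgeR or DESeq2, against 3 (other PP1 regulators), 3 (p53) and 1 (myosin phosphatase) at an unadjusted p under 0.05.

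Genes whose profile over the 12 libraries was most like that of Ppp1r13l were Acaca (Pearson r = 0.9965), Cep170b (0.9941), Prr12 (0.9941), Prune2 (0.9915) and Zfhx3 (0.9895), of 8846 genes compared by log2 CPM. For Ppp1r9b they were Plec (0.99), Acaca (0.9847), Aff4 (0.9838), Cep170b (0.9812) and Tnks1bp1 (0.9789). The r between Ppp1r13l and Ppp1r9b was 0.9758. The 12 points share libraries and fall into the 4 groups, so these values describe likeness and carry no test. Acaca encodes acetyl-CoA carboxylase, an enzyme that itself carries biotin. Its cortical-to-total log2 fold change was 3.57 in unwounded and 2.23 in wounded cells, against 2.15 and 1.24 for Ppp1r13l. Plec, which encodes the cytoskeletal linker plectin, had 1.37 and 1.36, and Cep170b 2.12 and 1.45.

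Removing the trend of counts on coding length, an alternative chosen after seeing the data, lowered the cortical-to-total values of Ppp1r13l and Ppp1r9b. Ppp1r13l has 3604 bases of merged exons and 2472 coding bases, and Ppp1r9b 5083 and 2451. With it removed, the unwounded values were 1.99 for Ppp1r13l and 1.88 for Ppp1r9b, and the wounded value of Ppp1r13l was 0.98. Scaling by library size alone raised the median of all genes by 0.187 in unwounded and 0.211 in wounded cells, as log2 cortical over total. It gave 1582 higher and 469 lower genes in unwounded cells, against 898 and 1030 with TMM. In wounded cells it gave 2203 higher and 520 lower genes, against 1034 and 1090.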

How the data were processed

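Translating mRNA of 12 libraries of mouse keratinocytes was measured in 4 groups of 3. The authors deposited raw counts per gene, used for all tests, and FPKM values, used for levels between genes. Per the submitters' processing notes, CASAVA, HISAT2 and mm10 were used. The counting tool and annotation are not given in the sources used here. Per the labels' protocols, libraries were non-directional, so overlapping genes on opposite strands share reads. The number of per-sample columns not used was 0.

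Counts were filtered (filterByExpr), scaled with TMM and fitted with a mean per group to all 12 libraries in edgeR 4.0.16 (quasi-likelihood F test, two-sided, Benjamini-Hochberg over 13571 genes, threshold 0.05), with R 4.3.3 and limma 3.58.1. SE and 95% intervals are of the log2 fold change. Groups and replicate numbers came from the titles. Same-numbered libraries deviated from their group means with correlations of -0.03 to 0.22, of which 2 of 12 were over 0.1. Numbers were therefore not used as pairs in the main fit, though these correlations do not show whether fractions shared a culture.

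The genes and lists were chosen with earlier results of these data known, and Ppp1r13l and Ppp1r9b are described without a test in all comparisons. Named genes were all 10 members, from each list the 2 called genes with the largest change in each direction, and the 5 protein-coding genes (mean of at least 100 counts) most correlated with Ppp1r13l and Ppp1r9b by log2 CPM (prior count 2). Alternatives were RLE and library size scaling, DESeq2 1.42.0, no filter or a mean count of 50, only the groups compared, a replicate block, a loess trend (span 0.5) on gene length removed, and each library left out. The coding length trend was chosen after seeing the data. The tests were tried on simulated data. Gene positions and lengths are from GENCODE M21 (GRCm38) and promoters from RefSeq (GRCm38.p6), where 8 of 10 genes matched. Figures used python 3.11.15 and matplotlib 3.10.9.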

Additional observations from a re-analysis of the deposited data

How the results depend on the processing

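Of 1040 alternative values for the 50 gene-by-comparison results, 949 kept direction and side of the threshold, 35 lost the threshold, 13 gained it, 11 untested values moved and 32 changed sign. The cause was not tested. Genes passing over the whole table moved as follows. With only the groups compared, 3014 (4 of the PP1 genes) passed in unwounded cortical against total, 970 (0) in wounded cortical against total, 1175 (1) in wounded against unwounded total and 1423 in wounded against unwounded cortical. With the coding length trend removed these were 1128 and 1208 for cortical against total and 617 for the cortical wound comparison. With the gene length trend removed 1 PP1 gene passed in unwounded and 0 in wounded cortical against total and 1 in each wound comparison. The number of all genes passing is not given for these, so whether the PP1 genes moved with the whole table is not shown. DESeq2 gave 2 in wounded cortical against total, again without the number of all genes. Library size scaling gave 1 in the total wound comparison, where 708 of all genes were higher and 1104 lower. In the cortical wound comparison RLE (182 of all genes higher and 135 lower) and no filter left 1 each and library size 0. In that comparison 199 genes passed with library size, 736 with DESeq2 and 559 with no filter. For the wound change of the ratio 11, 72, 138, 30 and 55 genes passed with library size, DESeq2, no filter, gene length and coding length. With the replicate block, 1 PP1 gene passed in the cortical wound comparison, Ppp1r15b, while Ppp1r15a no longer did (0.47, adjusted p = 0.0676). For the change of the ratio 10 genes passed with the block, which changed no other call of a PP1 gene.

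Leaving out 1 library in turn gave 949 to 3151 genes (2 to 4 PP1 genes) in unwounded and 1084 to 3475 (0 to 2) in wounded cortical against total. It gave 1128 to 3502 (1 to 3) in the total and 108 to 1276 (0 to 2) in the cortical wound comparison, and 4 to 413 for the change of the ratio. The highest count of genes came each time without wounded total replicate 1.

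Values that changed sign belonged to results that had not passed or were not tested. In wounded cortical against total, Ppp1cc was at 0.12 and Ppp1r13b at 0.16 with library size, Ppp1cb at -0.20 with gene length, and Ppp1r12a at -0.08 and -0.17 with gene and coding length. With 1 library left out Ppp1cc ran from -0.21 to 0.26 and Ppp1r13b from -0.27 to 0.32. In wounded against unwounded total, Trp53bp2 was at 0.01 with RLE and DESeq2 and at 0.12 and 0.08 with gene and coding length, Ppp1ca at 0.06 and 0.07 with these, and Ppp1cb at -0.02 with library size. With 1 library left out Trp53bp2 ran from -0.33 to 0.20, Ppp1cb from -0.07 to 0.14, Ppp1r9b from -0.02 to 0.15 and Ppp1r12a from -0.18 to 0.21. In the cortical wound comparison Ppp1r12a was at 0.02 with gene length and ran from -0.17 to 0.07 with 1 library left out. For the change of the ratio, leaving out 1 library gave -0.21 to 0.02 for Ppp1cb, -0.03 to 0.55 for Ppp1r13b, -0.41 to 0.14 for Trp53bp2, -0.24 to 0.17 for Ppp1r12a and -0.29 to 0.09 for Ppp1r15b. Wounded total replicate 1 was the library that changed the sign of these 5 except Ppp1r13b, where it was wounded cortical replicate 1.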
